A study of Rattus norvegicus with 90 samples.

Results

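A set of 212 transcripts was higher in both the kidney and the heart of rats 24 h after a high dose of thioacetamide, out of 40071 transcripts measured, or 0.529%. Members were chosen by the measured values themselves. For each organ, the value L was the log2 ratio of the mean level after the high dose to the mean level after vehicle, at 24 h, with levels in counts per 1000000 transcript counts (CPM) plus 1. From each L the median over all transcripts with a vehicle level of 1 CPM or more was subtracted, so that 0 stands for the typical transcript of that organ. Members are the transcripts whose L reached 0.6 in kidney and heart alike. The liver, which the choice of members did not use, then split them into 129 with a liver L of 0.5 or more and 83 below 0.5. Because the 24 h samples chose and split the members, their values at 24 h are a description, and the tests below use the 8 h samples, which the choice did not use.

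Male Sprague-Dawley rats, bought at 10 weeks of age and carrying a vascular catheter, received one intraperitoneal injection. The vehicle group got 3 ml/kg of saline, the low-dose group 25 mg/kg of thioacetamide, and the high-dose group 100 mg/kg. Organs were taken 8 or 24 h later, with 5 libraries for each organ, dose, and time, 90 in all. Rats in the 8 h groups, vehicle included, had no food after the injection, and rats in the 24 h groups had none for the last 8 h, so that all groups shared a fast. Whole kidneys and hearts were powdered before RNA was extracted, and poly-A RNA was sequenced. The organs came from the same rats, but the labels do not tie a library of one organ to a library of another.

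Thioacetamide is a model liver toxicant. The liver converts it by S-oxidation to reactive metabolites that bind proteins and lipids, and injury begins around the central veins. Organs outside the liver receive the compound, its metabolites, and signals released by the injured liver through the blood. Programs known to be switched on in many tissues at once include the antioxidant, heat shock, unfolded protein, and DNA damage responses, the acute-phase response to cytokines, and the response to glucocorticoids and fasting. The files name transcripts by Ensembl identifiers and do not pair them with genes, so no member was placed in any of these programs, and no sequence is given. In bulk tissue, fewer cells of a type and less RNA per cell cannot be told apart, and the same holds for more.

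The transcripts took 13429990 to 34299122 estimated counts in each of the 90 libraries, with a median of 21741218. A pair of liver libraries with different labels, a vehicle library at 24 h and a low-dose library at 8 h, agreed within 1 count for 99.96% of the transcripts with 10 or more counts in either, against at most 3.82% for any other pair of libraries. The first was left out of the values and comparisons that follow, so the liver vehicle group at 24 h had 4 libraries. Transcripts restricted to one organ in the 8 h vehicle libraries matched the organ labels at 24 h. Kidney-restricted transcripts took at least 3.39% of the counts in kidney libraries and at most 0.0248% elsewhere, and heart-restricted transcripts took 11.98 to 14.42% in heart libraries and at most 0.0607% elsewhere. Liver-restricted transcripts took 25.5 to 43.0% in liver libraries, but their share reached 1.87% in one kidney library, which is taken up below with the members it affects.

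At 24 h after the high dose, members made up 13.8% of the 1537 transcripts at or above 0.6 in the kidney and 36.9% of the 575 at or above 0.6 in the heart. The median L of the members was 0.97 for the kidney and 0.89 for the heart. The kidney value was the larger in 51.4% of the members. Both values were 1 or more in 55 members, the kidney value was 2 or more in 15, and the heart value was 2 or more in 6. The kidney range was the wider, from 0.60 to 5.38 against 0.61 to 2.59 in the heart. Fewer transcripts, 75, were at or below -0.6 in both organs, and 23 were at or above 0.6 in the kidney and at or below -0.6 in the heart, with 37 the other way round.

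**Figure D1:**
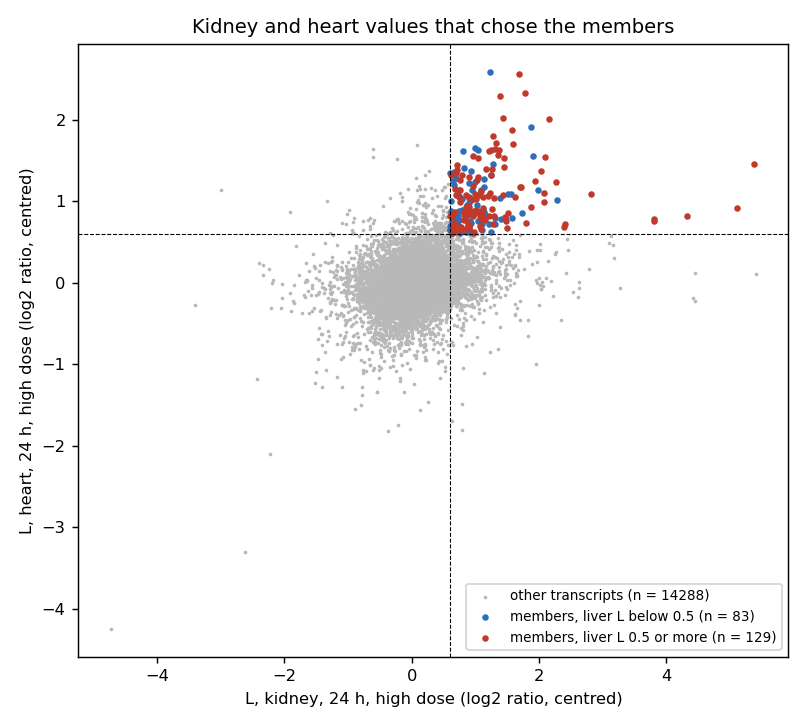
L in the kidney (horizontal) against L in the heart (vertical), both 24 h after the high dose, as centred log2 ratios. Grey points are other transcripts with at least 1 CPM after vehicle in both organs, colored points are the 129 members with liver L of 0.5 or more (red) and the 83 below (blue), and dashed lines mark 0.6. The members reach farther along the kidney axis, to 5.38, than along the heart axis, to 2.59.

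The threshold cut through a dense region. The members nearest to it had a smaller L of 0.602 and 0.609, and the transcripts just outside had 0.599 and 0.598. The smaller of the 2 values was under 0.7 in 60 members, and in 92 other transcripts it lay between 0.5 and 0.6. The vehicle level was under 1 CPM for 29 members in kidney and 27 in heart, and 171 members had 1 CPM or more in both.

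For many members, reaching 0.6 in both organs depended on which libraries were included. When each of the 20 kidney and heart libraries behind the 2 values was left out in turn, 113 members kept L of 0.6 or more in both organs every time, and 99 lost it at least once. Leaving out high-dose kidney library MS-56 removed 36 members, leaving out high-dose heart library MS-86 removed 27, and leaving out high-dose kidney library MS-54 removed 19. No other library removed more than 14. Left out together, kidney MS-56 and heart MS-86, whose numbers lie 30 apart, removed 53.

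ENSRNOT00000078046 had the largest smaller value of the 129 members with liver L of 0.5 or more. In the kidney at 24 h its level was 8.48, 15.3, 16.2, 17.4, and 20.2 CPM after vehicle and 28.2, 38.5, 53.99, 102.8, and 165 CPM after the high dose. In the heart it was 0.0472, 11.7, 12.7, 17.8, and 21.2 CPM after vehicle and 24.4, 31.6, 36.7, 70.002, and 102.1 CPM after the high dose. The dose groups did not overlap in either organ, and L was 2.15 for the kidney and 2.0 for the heart. Of all transcripts with a mean of 1 CPM or more, 9.85% in the kidney and 4.28% in the heart were likewise higher in all high-dose libraries. The same libraries chose this transcript, so its separation there is a description only. The liver, where L was 2.53, held 10.8, 14.3, 16.6, and 26.4 CPM after vehicle and 78.1, 88.2, 111, 226, and 327 CPM after the high dose, again without overlap. In that liver comparison, 57.9% of all transcripts with a mean of 1 CPM or more were likewise higher in all high-dose libraries. Single heart libraries stood near 0 at 3 of the 6 doses and times, at 0.0472 CPM above and at 0.000158 CPM in the 8 h vehicle group and 0.0101 CPM in the 8 h low-dose group, while the other libraries of those groups held 5.41 CPM or more.

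ENSRNOT00000032015 had the largest smaller value of the 83 members with liver L below 0.5. Its kidney level at 24 h was 8.5, 11.6, 11.7, 14.6, and 19.4 CPM after vehicle and 18.4, 52.8, 58.2, 59.6, and 84.6 CPM after the high dose. One high-dose library, number 54, therefore lay within the vehicle range, and the other 4 lay above it. Heart levels were 9.64, 10.8, 12.3, 14.2, and 19.9 CPM after vehicle and 29.5, 39.2, 45.7, 57.5, and 89.9 CPM after the high dose, without overlap. The same held for 4.28% of all transcripts in the heart, and here too the libraries had chosen the member. L was 1.88 for the kidney and 1.91 for the heart. In the liver the mean level was 111 CPM after vehicle and 212 CPM after the high dose, but the median transcript of the liver stood at 0.68 in the same log2 ratio, which left a liver L of 0.25.

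**Figure D2:**
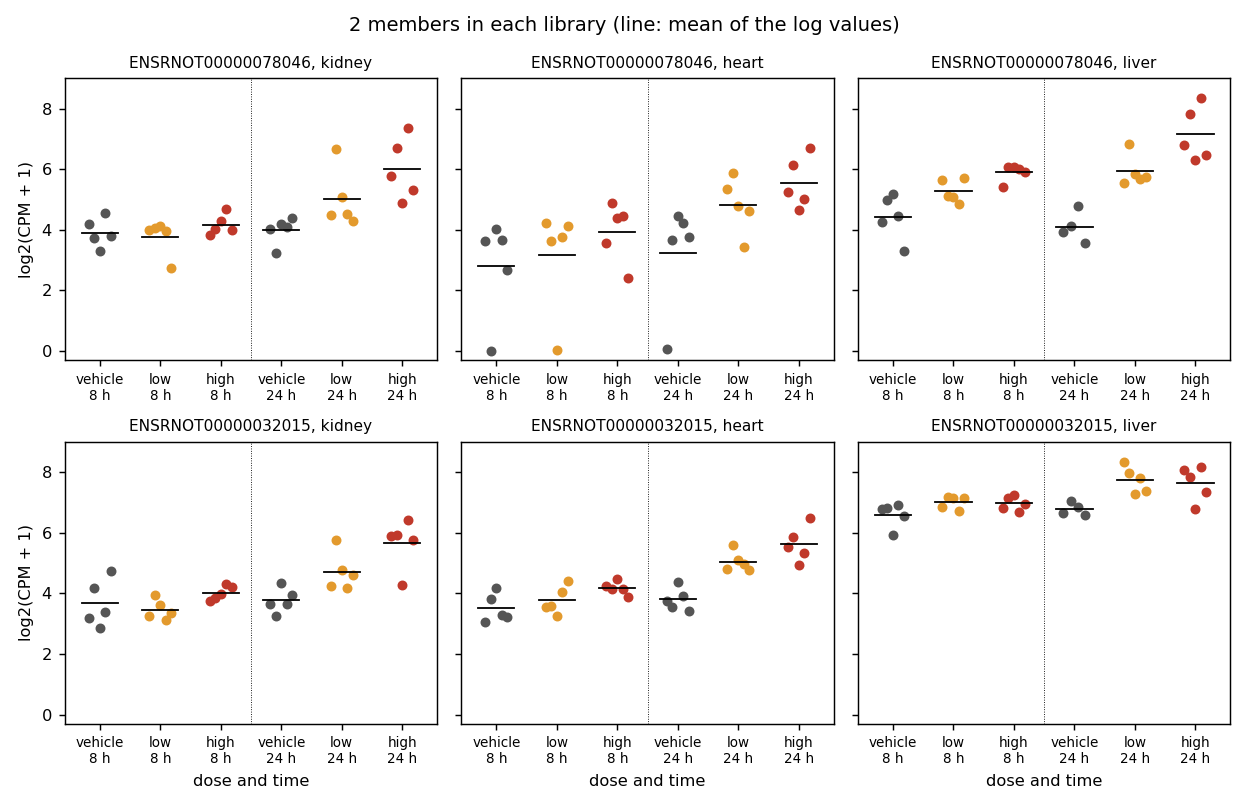
Level of ENSRNOT00000078046 (upper row) and ENSRNOT00000032015 (lower row) in each library, as log2(CPM + 1), by dose and time in the kidney, heart, and liver. Points are libraries, with 5 per group and 4 in the liver vehicle group at 24 h, and lines are means of the log values. At 24 h the high-dose libraries lie above the vehicle libraries in kidney and heart, apart from 1 kidney library of the lower transcript, and in the liver the upper transcript shows this at both times.

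The largest values of all had different structures in the 2 organs. The member with the highest kidney L, 5.38, held 3.18 to 8.67 CPM in the 24 h vehicle kidneys and 240 to 349 CPM in the high-dose kidneys. Its heart levels were 16.2 to 27.3 CPM after vehicle and 40.4 to 83.9 CPM after the high dose. The member with the highest heart L, 2.59, was either near 0 or near 10 CPM: among the 60 kidney and heart libraries of all doses and times, 43 held 0.0861 to 0.531 CPM, and 17 held 8.19 to 16.5 CPM. At 24 h the higher level was seen in 2 of 5 high-dose hearts and 1 of 5 high-dose kidneys, in 1 low-dose heart and 3 low-dose kidneys, and in no vehicle library of either organ. It was seen at 8 h after vehicle too, in 1 kidney and 1 heart library, so L for this member is set by how many libraries of a group carried the higher level. Both members were picked out after their values were seen.

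The low-dose values at 24 h share their vehicle samples with the high-dose values, and are given beside them as levels only. The median L of the members after the low dose was 0.46 for the kidney and 0.55 for the heart. It was 0.6 or more in 59 members for the kidney and in 90 for the heart, beside 2.34% and 1.48% of transcripts with 1 CPM or more after vehicle. It was 0.6 or more for both organs in 37, beside 0.406% of transcripts with 1 CPM or more in both after vehicle at 8 h.

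The log2 ratio of the 24 h to the 8 h vehicle mean, centred in the same way, had a median of -0.03 over the members in each of the 2 organs. In the kidney, 14 members were at -0.6 or less and 10 at 0.6 or more, beside 269 and 118 of 17120 transcripts with 1 CPM or more. In the heart, 17 and 2 members were, beside 129 and 69 of 15713. The 24 h vehicle mean is the denominator of L.

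The 8 h samples asked whether the members already differed earlier, in libraries that had no part in choosing them. Over all 212 members, the median L 8 h after the high dose was 0.45 for the kidney and 0.43 for the heart, and 0 by construction over all transcripts. L was above 0 in both organs in 165 members, or 77.8%, against 28.4% of transcripts with 1 CPM or more after vehicle in both, a minimum that was not set for the members. It was 0.6 or more in both organs in 37 members, or 17.5%, against 0.42% of those transcripts, and in the liver as well in 31, against 0.344%. Another 51 members reached 0.6 in the kidney alone, 20 in the heart alone, and 104 in neither. After the low dose, L was above 0 in both organs in 114 members, against 29.7%, and 0.6 or more in both in 8, against 0.138%.

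A call by edgeR required a Benjamini-Hochberg adjusted p up to 0.01 and a natural-log fold change of 0.60 or beyond, equal to 0.866 in log2 units, among transcripts that passed its filter on low counts. In the kidney at 8 h, edgeR's quasi-likelihood test called 28 of the 212 members higher after the high dose and none lower, with 197 members tested, beside 1.09% of all transcripts called higher and 0.409% lower. Their log2 fold changes ran from 0.89 to 5.26, with a median of 1.53. At an unadjusted p under 0.05, 87 members were higher and none lower, beside 11.4% of all transcripts higher, and DESeq2 called 46, beside 1.89%. In 41 of the 195 members with a mean of 1 CPM or more, all 5 high-dose libraries lay above all 5 vehicle libraries, beside 5.64% of all transcripts. The count of calls depended on single libraries. It was 17 without high-dose library MS-98 or MS-102, 16 without vehicle library MS-40, 18 without vehicle library MS-58, and 17 without vehicle library MS-59. With libraries numbered up to 90 alone it was 7, from 2 high-dose and 4 vehicle libraries. The high-dose libraries kept, MS-38 and MS-57, had the lowest median member levels of their group, 0.24 and 0.34 in the summary given below. Those left out, MS-98, MS-101, and MS-102, had 0.56, 0.73, and 0.56.

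The 8 h hearts gave few calls in all. High-dose hearts had 3 of 17519 transcripts called higher by edgeR, 0.0171%, and 2 of these 3 were members, with 202 members tested. At an unadjusted p under 0.05, 97 members were higher, beside 5.3% of all transcripts, and DESeq2 called 21 members, beside 0.218% of all transcripts. In 44 of the 193 members with a mean of 1 CPM or more, all high-dose libraries lay above all vehicle libraries, beside 1.72% of all transcripts. The edgeR count of 2 became 4 without high-dose library MS-68, 1 without high-dose library MS-74 or MS-87, 1 without vehicle library MS-88 or MS-89, and 0 without vehicle library MS-76.

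The first of these 2 members, which has no gene name here and was picked out after its values were seen, held 6.18, 6.70, 7.16, 8.14, and 10.8 CPM in the vehicle hearts at 8 h and 21.3, 22.8, 25.5, 25.7, and 32.2 CPM in the high-dose hearts. Its log2 fold change was 1.68 ± 0.16 (SE, adjusted p = 0.00203, edgeR with Benjamini-Hochberg adjustment), and all 5 high-dose libraries were higher. The low-dose hearts, at 9.45 to 11.8 CPM, lay between these groups apart from 1 vehicle library. Kidney and liver gave calls for it as well, at 1.15 ± 0.12 (SE, adjusted p = 0.000328, edgeR) and 2.78 ± 0.24 (SE, adjusted p = 9.56e-06, edgeR), and no other member was called in the 3 organs at 8 h. The second had 8.83, 10.9, 11.8, 14.5, and 15.4 CPM in the vehicle hearts and 31.96, 33.9, 35.7, 39.2, and 48.3 CPM in the high-dose hearts, without overlap. Its level in the kidney was 16.8 to 93.2 CPM after vehicle and 39.8 to 66.2 CPM after the high dose, where it was not called. In the liver it was called higher at 8 h, with a log2 fold change of 4.81 ± 0.48 after the high dose (SE, adjusted p = 2.08e-05, edgeR). After the low dose the liver value was 3.04 ± 0.36 (SE, adjusted p = 0.000168, edgeR).

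**Figure D3:**
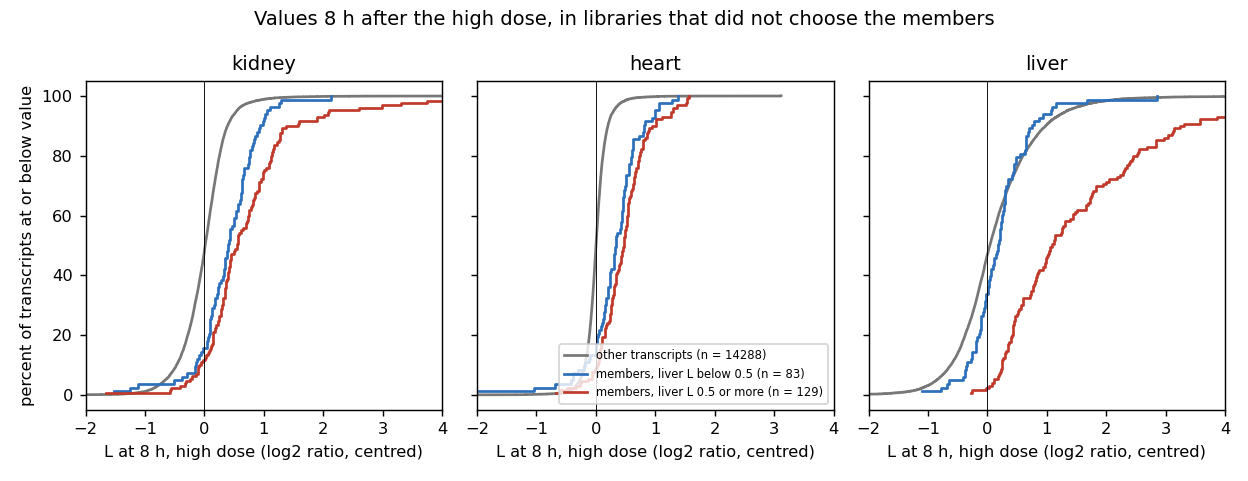
Cumulative percent of transcripts (vertical) at or below each L 8 h after the high dose (horizontal, centred log2 ratio), in the kidney, heart, and liver. Red and blue lines are members with liver L at 24 h of 0.5 or more and below 0.5, and grey is the other transcripts with at least 1 CPM after vehicle in kidney and heart at 24 h. Both member lines lie to the right of the grey line in kidney and heart, with medians of 0.55 and 0.40 in the kidney and 0.47 and 0.33 in the heart, while in the liver the lines separate, at 1.08 and 0.18.

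The low dose gave fewer calls at 8 h. The kidney count was 6 members higher, with 201 tested, and none lower, beside 0.175% of all transcripts higher and 0.0425% lower, and all 6 were called after the high dose too. At an unadjusted p under 0.05, 46 members were higher, beside 6.51% of all transcripts, and 1 was lower. DESeq2 called 7, beside 0.425%. In 19 of 194 members with a mean of 1 CPM or more, all low-dose libraries lay above all vehicle libraries, beside 4.34% of all transcripts, and the corresponding count in the heart was 7 of 190, beside 0.863%. The kidney count of 6 calls was 3 without vehicle library MS-40, MS-58, or MS-59. The member with the highest 24 h kidney value was among the 6: the vehicle kidneys held 5.45 to 8.52 CPM, the low-dose kidneys 46.6 to 160 CPM, and the high-dose kidneys 44.3 to 177 CPM at 8 h. Its fold changes were 3.85 ± 0.33 after the low dose (SE, adjusted p = 0.000372, edgeR) and 3.9 ± 0.37 after the high dose (SE, adjusted p = 0.000158, edgeR) on the log2 scale, and the difference between them was not tested. At 24 h the low-dose kidneys held 6.22 to 57.9 CPM of this member, a range that overlaps the vehicle kidneys. No heart response to the low dose was called by edgeR in the 200 members tested, beside 0.0% of all transcripts. There, 38 members were higher at an unadjusted p under 0.05, beside 2.06% of all transcripts, DESeq2 called 1, beside 0.00576%, and edgeR called 1 without vehicle library MS-76.

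The 2 transcripts named above were not called in kidney or heart at 8 h. For ENSRNOT00000078046 the log2 fold change after the high dose was 0.27 ± 0.24 in the kidney (SE, adjusted p = 0.528, edgeR) and 0.89 ± 0.74 in the heart (SE, adjusted p = 0.783, edgeR). For ENSRNOT00000032015 it was 0.22 ± 0.36 in the kidney (SE, adjusted p = 0.752, edgeR) and 0.63 ± 0.23 in the heart (SE, adjusted p = 0.393, edgeR). In the liver, ENSRNOT00000078046 was called at 8 h, with 8.88 to 35.2 CPM after vehicle and 42.1 to 67.01 CPM after the high dose, and a log2 fold change of 1.25 ± 0.29 (SE, adjusted p = 0.00484, edgeR). This call was lost without high-dose liver library MS-11, MS-14, MS-17, or MS-27 or vehicle liver library MS-10 or MS-28, when the fold change was 1.15 to 1.25 and the adjusted p (edgeR) 0.0108 to 0.0148.

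Kidney and heart were compared directly at 8 h by the interaction of organ and high dose, an addition made after the data were seen. The response of 10 members was larger in the kidney, beside 0.673% of all transcripts, and of none in the heart, beside 0.182%, by edgeR at an adjusted p of no more than 0.01. At an unadjusted p under 0.05, 25 members were larger in the kidney, beside 7.16% of all transcripts, and 12 in the heart, beside 8.14%. The 10 members had log2 fold changes of 1.02 to 5.26 in the kidney and 0.15 to 1.16 in the heart, and all 10 were called in kidney and none in heart. Of the 10, 9 had liver L of 0.5 or more at 24 h, and the same number were called in the liver at 8 h, with a median log2 fold change of 4.5 there over the 10. Without vehicle kidney library MS-100 the response of 16 members differed between the organs, 2 of them larger in the heart. The test treated kidney and heart libraries as independent. Among libraries whose numbers lie 30 apart, 4 vehicle and 2 high-dose pairs, it called 4 members, and none with each pair as a block. With so few pairs, the lack of calls does not show that the organs responded alike.

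The members' levels without thioacetamide were compared between kidney and heart. In the 8 h vehicle libraries, edgeR called 25 members higher in the kidney than in the heart, beside 24.0% of all transcripts, and 51 higher in the heart, beside 20.6%, with 200 tested. The order turned with the scaling: total-count scaling gave 36 members higher in kidney and 28 higher in heart, and limma on log2(TPM + 1) gave 33 and 23. The median level over the members was 6.72 CPM in the kidney and 6.33 CPM in the heart. Counted by the organ with the highest CPM, 83 members, or 39.2%, were highest in the liver, 67 in the heart, and 62 in the kidney. Among the 14459 transcripts with 1 CPM or more after vehicle in kidney and heart at 24 h, 9.08% were highest in the liver. That minimum was not set for the members. Those highest in the liver were 47 of the 83 members with liver L below 0.5 and 36 of the 129 others.

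The liver split was made at 24 h and again described by other samples at 8 h. In the liver 8 h after the high dose, the median L was 1.08 for the 129 members with liver L of 0.5 or more at 24 h and 0.18 for the 83 below. The edgeR test called 66 of the 129 higher and none lower, and of the 83 it called 2 higher and 2 lower, with 195 of the 212 tested, beside 12.4% of all transcripts called higher and 7.75% lower. After the low dose, 33 of the 129 and 1 of the 83 were called higher and 1 member lower, beside 5.78% and 4.1% of all transcripts. Among the low-dose livers at 8 h, the library that matched a 24 h vehicle library was kept, and without it 25 members were called in place of 34.

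Both classes, 129 and 83 members, contributed to the kidney calls. In the 8 h high-dose kidneys, 23 of the 129 and 5 of the 83 were called higher, and both heart calls were among the 129. The median L at 8 h was 0.55 and 0.40 in the kidney and 0.47 and 0.33 in the heart. At 24 h, where the kidney and heart values chose the members, the medians were 1.04 and 0.92 in the kidney and 0.91 and 0.87 in the heart. Liver values in the second class reached down to -3.75. Of all 212 members, 26 had a liver L of -0.6 or less, beside 3215 of the 13833 transcripts with 1 CPM or more in the vehicle livers. The split moves with the centring of the liver, since the log2 ratio of the median liver transcript was 0.68 at 24 h after the high dose. Without centring, 42 of the 83 would reach 0.5 in the liver. The medians subtracted in the kidney and heart at 24 h were 0.10 and -0.02.

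A group of 12 members was highly abundant in the liver, with 1000 CPM or more in the 8 h vehicle livers and under 1% of that level in the kidney and heart. Of these, 9 belonged to the class with liver L below 0.5. Their summed level in the 24 h kidneys was 72.6 to 458 CPM after vehicle, and after the high dose 184 to 210 CPM in 4 libraries and 1776 CPM in library MS-54. Another 51 transcripts met the same limits on level but are no members. They were high in the same library, at 1310 CPM against 116 to 185 CPM in the other 4. Without library MS-54, the median kidney L of the 12 changed from 1.57 to -0.69, and 2 of the 12 kept a kidney L of 0.6 or more. Without vehicle library MS-31 as well, in which the 12 summed to 458 CPM against at most 164 CPM, the median was -0.20. The median over the other 200 members was 0.95 with all libraries and 1.04 without library MS-54 alone.

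A second kidney library showed more of the same transcripts. In the low-dose kidneys at 24 h, the 12 members summed to 8344 CPM in library MS-37 and 99.5 to 539 CPM in the other 4, and the 51 that are no members to 8183 CPM and 156 to 537 CPM. Without library MS-37 the median low-dose kidney L of the 12 went from 3.09 to 0.21, and that of the other 200 members stayed at 0.44. In the heart at 24 h the 12 members summed to 16.4 to 34.8 CPM after vehicle and 28.2 to 81.8 CPM after the high dose, with 4 of the 5 high-dose libraries above the vehicle range. The 51 others summed there to 71.9 to 93.9 CPM and 77.9 to 128 CPM. The part that liver RNA in kidney and heart libraries plays in the values of these 12 was not tested. At 8 h, 1 of the 28 kidney calls was among them and none of the heart calls.

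**Figure D4:**
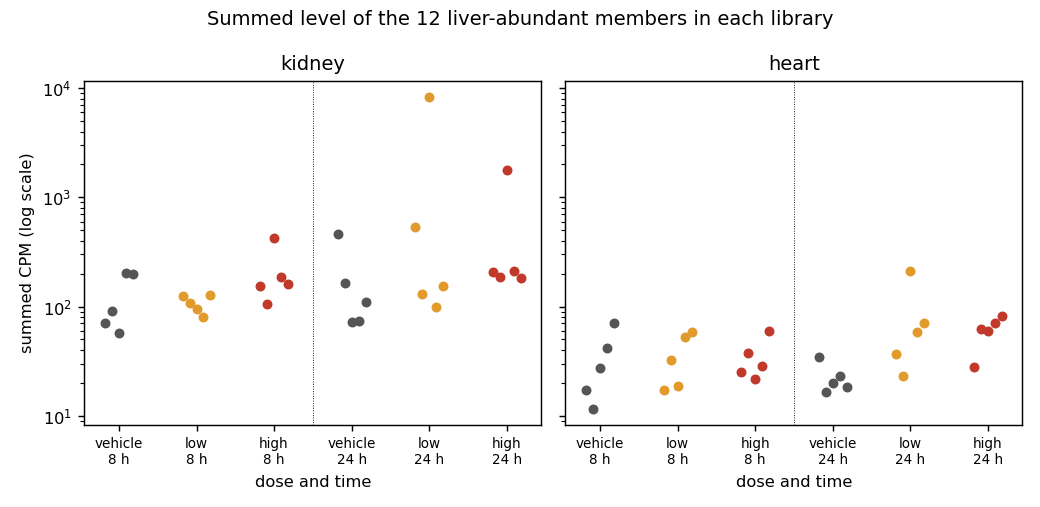
Summed level of the 12 liver-abundant members in each kidney and heart library (CPM, log scale) by dose and time. Points are libraries, 5 per group, and single kidney libraries reach 1776 CPM after the high dose and 8344 CPM after the low dose at 24 h, whereas no heart library exceeds 213 CPM.

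The median level of the members varied between libraries of one group. For each library, the median over the 212 members of log2(CPM + 1) relative to the vehicle mean, centred in the same way, was taken as a summary without a test. At 24 h after the high dose it was 0.61, 0.89, 0.96, 0.97, and 1.23 in the kidney and 0.72, 0.84, 0.90, 0.996, and 1.19 in the heart. All of these lay above the vehicle libraries, which ranged from -0.08 to 0.02 in the kidney and -0.08 to 0.09 in the heart. Because these same libraries chose the members, their separation at 24 h follows from the choice. Among the 8 h high-dose libraries it was 0.24, 0.34, 0.56, 0.56, and 0.73 in the kidney, above the vehicle range of -0.13 to 0.18. In the heart it was 0.19, 0.32, 0.45, 0.47, and 0.59, and 1 vehicle library, at 0.22, lay above the lowest of these.

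Several of the lowest and highest libraries carried matching numbers across organs. After the high dose at 24 h, the lowest were kidney MS-54, heart MS-84, and liver MS-24, and the highest were kidney MS-56, heart MS-86, and liver MS-26, so that the numbers differ by 30 from liver to kidney and from kidney to heart. Over the lowest and the highest library of the 6 doses and times, 7 of 12 pairs of kidney and heart libraries differed by 30 in this way, as did 5 of 12 pairs of liver and kidney libraries, and 6 of 12 pairs of liver and heart libraries differed by 60. How many such matches chance would give was not tested. The high-dose and vehicle libraries of kidney and heart at 24 h had also chosen the members. The labels do not say that such libraries come from the same rat, and the spread between rats and between libraries cannot be told apart.

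**Figure D5:**
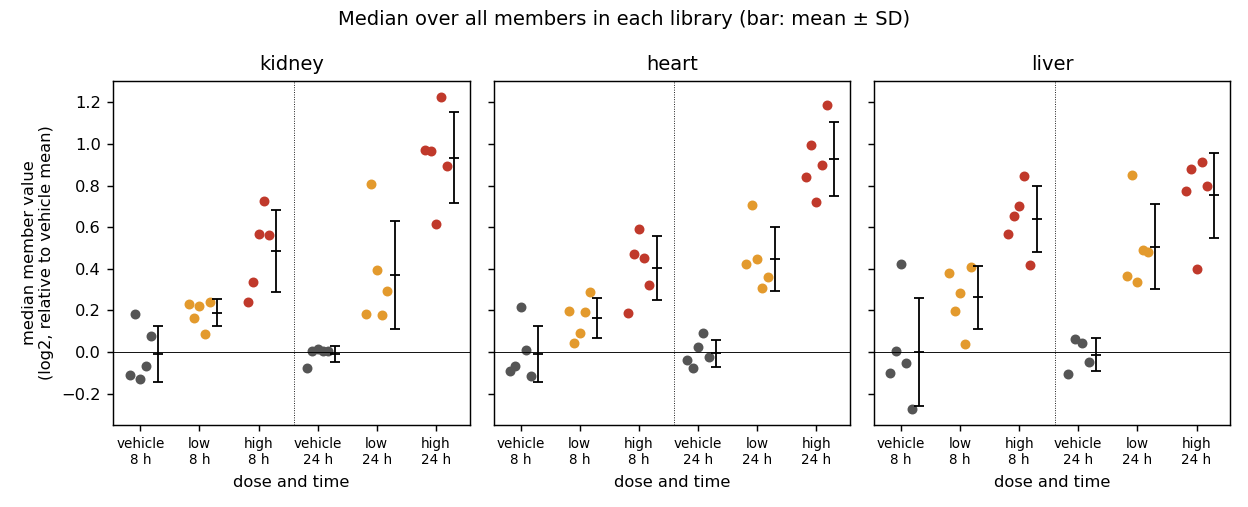
Median over the 212 members in each library, as a log2 value relative to the vehicle mean of the same organ and time, by dose and time. Points are libraries, and bars are the mean ± SD of 5 libraries, or 4 in the liver vehicle group at 24 h. At 24 h the high-dose libraries lie between 0.61 and 1.23 in the kidney and 0.72 and 1.19 in the heart. The low-dose medians are 0.29 and 0.42, and the highest low-dose libraries are at 0.81 and 0.70. The highest low-dose kidney library, MS-35, thus lies above the lowest high-dose kidney library. The vehicle libraries lie near 0 because the values are relative to their mean.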

How the data were processed

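The authors quantified the reads with Kallisto (version 0.42.2 in the submitters' processing notes, build Rnor_6.0) and deposited, for each library and target, an estimated count that is not normalized and a TPM value scaled by target length. The deposited tables list 65166 targets, of which 40071 are Ensembl transcripts and 25095 genomic intervals, and the transcripts alone were used. The transcript identifiers were not paired with genes by the files or tables used here, so gene lists and cell type markers could not be applied. The 2 transcripts named are those with the largest smaller L in each liver class among members with a mean of at least 2 CPM after the high dose in both organs.

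The members and the liver split were chosen with earlier results of these data known. L was computed from mean CPM with a pseudocount of 1 CPM. Estimated counts were rounded and each treated group was compared with its vehicle group, 5 libraries against 5, in edgeR 4.0.16 (R 4.3.3) with filterByExpr, TMM scaling, and the quasi-likelihood test. P-values were adjusted by Benjamini-Hochberg over all transcripts tested. They measure the spread between libraries only. DESeq2 1.42.0, limma 3.58.1 on log2(TPM + 1), other scaling, no filter, no fold limit, and leaving out each library were alternatives. The interaction, libraries numbered up to 90 in the kidney, counts without the 12 liver-abundant members, members kept without single libraries or pairs of them, and the pairing of kidney and heart libraries by number were added after the data were seen. The fits were tested on simulated data. Tables were made with Python 3.11.15, pandas 2.3.3, and numpy 2.4.6, and plots with matplotlib 3.10.9.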

Additional observations from a re-analysis of the deposited data

Results flagged for a closer look

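Within groups of 5 libraries, a single library stood apart by Dixon's criterion in 13 of 84 group summaries tested. For independent, normally distributed summaries the criterion gives about 1 in 20, or 4.2. The summaries share libraries and members, and some use the 24 h libraries that chose the members. The 13 can therefore not be judged against that rate. Of the 13, 5 concern the summed level of the 12 liver-abundant members. These were 8344 CPM in kidney library MS-37 (low dose, 24 h, against at most 539 CPM), 1776 CPM in kidney library MS-54 (high dose, 24 h, against at most 210 CPM), 458 CPM in kidney library MS-31 (vehicle, 24 h, against at most 164 CPM), 422 CPM in kidney library MS-98 (high dose, 8 h, against at most 185 CPM), and 213 CPM in heart library MS-67 (low dose, 24 h, against at most 71.04 CPM).

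Kidney library MS-35 (low dose, 24 h) was high in 3 summaries. The median of the members with liver L of 0.5 or more was 0.86 there, against at most 0.33, ENSRNOT00000032015 was at 53.02 CPM, and ENSRNOT00000078046 was at 101.02 CPM. Vehicle kidney library MS-31 at 24 h was low in the medians of both classes, at -0.065 and -0.13. Vehicle liver library MS-16 at 8 h had a median of 0.35 for members with liver L below 0.5. ENSRNOT00000078046 stood at 5.69 CPM in kidney library MS-108 (low dose, 8 h) and at 113 CPM in liver library MS-5 (low dose, 24 h).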

How the results depend on the processing

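The number of members depended on the pseudocount. With 0.1 CPM in place of 1 there were 577 members, 306 of them with liver L of 0.5 or more, and with 5 CPM there were 96, of which 63 had it. Members called after the high dose at 8 h were 46 by DESeq2 in the kidney, 7 there with libraries numbered up to 90 only, and 21 by DESeq2 or 4 without a fold limit in the heart, where DESeq2 called 1 after the low dose. Leaving out 1 library at a time gave 16 to 40 calls for the kidney and 0 to 4 for the heart after the high dose, 3 to 6 and 0 to 1 after the low dose, and 61 to 79 and 25 to 43 in the liver. It gave 21 to 30 members higher in the vehicle kidney than heart and 43 to 57 higher in the heart, 9 to 16 in the interaction, 184 to 227 members, and 117 to 139 with liver L of 0.5 or more. The kidney log2 fold change at 8 h turned to -0.0067 for ENSRNOT00000032015 with library number above 90 as a covariate, and to -0.049 for ENSRNOT00000078046 with libraries numbered up to 90 only. Members higher in the vehicle heart than kidney were 28 with total-count scaling and 23 by limma on log2(TPM + 1), in place of 51. The causes were not tested. The other 61 recomputed counts, with liver calls counted upward only, stayed within 1.5 times the reported ones. The labels tie no libraries to rats. Pairing kidney and heart libraries whose numbers lie 30 apart left 4 vehicle and 2 high-dose pairs at 8 h. In these 12 libraries the interaction was called in 4 members without and 0 with a replicate block, and 19 or 22 members were higher in the vehicle kidney and 53 or 56 in the vehicle heart. Whether calls were lost through fewer libraries or through the libraries kept was not tested. Of the 8 h high-dose kidneys, the pairs kept only MS-38 and MS-57, and so did the limit of 90. These were the lowest in median member level. Depth limits the 41 members with under 1 CPM after vehicle in the kidney or heart, where the counts behind the vehicle mean are low.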
